A study of Daphnia magna with 12 samples.

Results

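Transcripts of whole Daphnia magna kept for 48 h in cholinium chloride (CholCl) were set against those of animals kept in medium alone. Daphnia magna is a freshwater crustacean used as a standard animal in toxicity testing. The comparison took in 6 of the 12 libraries of the study by their labels, 3 from CholCl and 3 from control, and every gene row of their count tables. The CholCl animals were held in medium with the salt at its EC20, the concentration that gives 20% of a measured effect, and the control animals in blank ASTM medium. The other 6 libraries came from animals exposed to C2mimCl (1-ethyl-3-methylimidazolium chloride) or C12mimCl (1-dodecyl chloride-3-methylimidazolium), also at their EC20, with 3 libraries each. The labels give neither the endpoint behind the EC20 nor its concentration. All groups were third-brood neonates under 10 h old at the start, unfed throughout, with 120 animals per vessel in 500 mL. Each library was a pool of 90 animals that were still active, taken from its own vessel, so replicates are vessels of animals from shared cultures and animals that had stopped moving are not represented.

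Choline, the cation of the salt, is a nutrient for animals. It is a building block of phosphatidylcholine in membranes and of the neurotransmitter acetylcholine, and once oxidised to betaine it serves as a methyl donor and an osmolyte. Choline is also used as the cation of ionic liquids, organic salts with low melting points, as are imidazolium rings. The files name genes by identifiers that none of the 28335 genes of the reference table for assembly ASM2063170v1.1 carries (0 of 46334 matched), so no gene can be tied here to choline handling or to any other function. Genes are therefore described by their response, their abundance and their behaviour across vessels, and 4 are given by identifier. For the same reason the whole-body label could not be checked against marker genes.

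The CholCl libraries held 12921872 to 13767107 reads in genes and the control libraries 13400475 to 15409131. Across genes, which are not independent replicates, each of these 6 libraries correlated more with the mean of the other libraries of its own group (r of log2 CPM from 0.9672 to 0.9848) than with the mean of the other group (0.8247 to 0.8979). CPM is a gene's count scaled to a common library size. CholCl vessels were alike for a typical gene, with a median SD of log2 CPM of 0.188, against 0.279 among control vessels (n = 3 each). The share of reads assigned to no gene was 5.25% to 5.83% in CholCl and 6.32% to 8.39% in control libraries, and that of reads without a unique position 7.785% to 7.995% and 9.039% to 9.429%. Both shares did not overlap between the groups (two-sided exact permutation test, p = 0.1, the smallest that 3 against 3 libraries can give).

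CholCl changed the level of a large part of the transcriptome, with more falls than rises under the scaling used (TMM). Of 15847 genes tested, 2515 were higher and 3552 lower in CholCl than in control (edgeR's quasi-likelihood F test, called QL test from here on, with a Benjamini-Hochberg adjusted p below 0.05), which is 15.9% and 22.4% of the genes tested and 38.3% together. A further 9780 genes were not called. For 5380 of these the 95% interval of the change lay within 2-fold in either direction, and for the other 4400 it reached beyond. The log2 fold change of all tested genes had a median of -0.0929, and the middle 80% of genes lay between -2.32 and 0.837, a range that reached farther down than up. In whole animals, fewer cells of a type and less RNA per cell cannot be told apart. The share of falls among the called genes was 58.5% with TMM scaling, 52.8% with RLE scaling and 53.5% with DESeq2. It was 52.4% with TMM factors computed without the most abundant gene. After upper-quartile scaling it was 36.8%, and the median of all genes was 0.167. With the share of reads assigned to no gene as a covariate 4054 genes were called, of which 3268 were among the 6067. That share did not overlap between the groups, so the covariate is partly confounded with them. Without CholCl replicate 1 the calls numbered 3572 (1463 higher and 2109 lower), and without control replicate 1 the higher genes numbered 1649. Other settings gave more calls. Without C2mimCl replicate 1, which shares in the estimate of spread, 7949 of 16212 genes tested were called. With the 6 libraries fitted alone 6828 of 14962 were called, and with library quality weights 9094. The number of genes not called thus depends also on the libraries of the other salts.

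**Figure D1:**
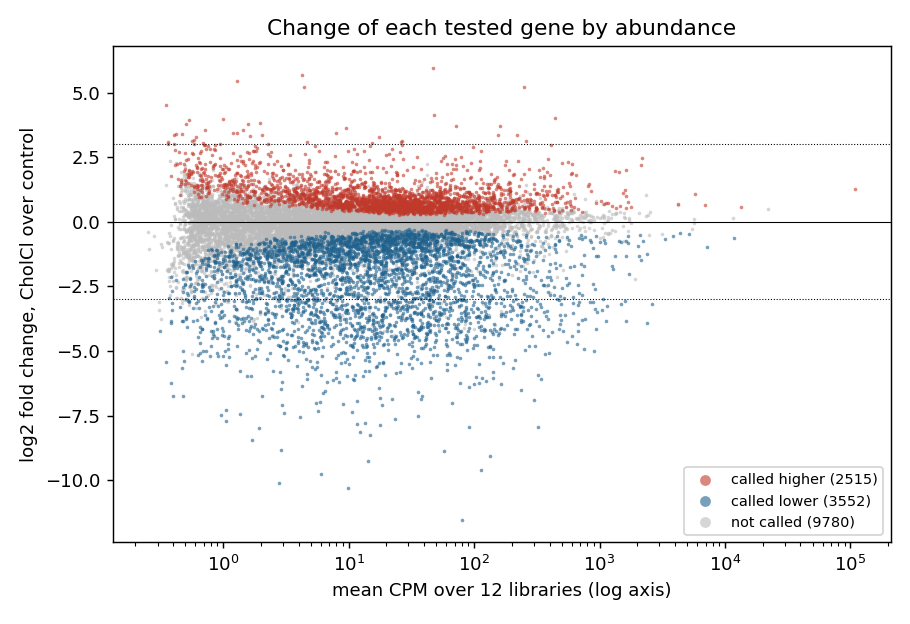
Log2 fold change of CholCl over control (y axis) against mean CPM over the 12 libraries (x axis, log scale) for the 15847 tested genes, coloured by call, with dotted lines at 8-fold. Called falls reach farther from 0 than called rises over most of the range of abundance.

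The falls were also deeper than the rises. Among called genes the median change was 3.51-fold for the lower and 1.78-fold for the higher genes. The middle 80% of the falls ran from -4.32 to -0.676 on the log2 scale, and that of the rises from 0.467 to 1.84. Rises of at least 2-fold numbered 934, or 37.1% of the higher genes, and falls of that size 2683, or 75.5% of the lower genes. At 4-fold the counts were 192 and 1657, at 8-fold 42 and 1038, at 16-fold 8 and 503, and at 32-fold 5 and 169. The call of a gene and the size of its fitted change are not the same evidence, since a change of at least 2-fold over its whole 95% interval was seen in 270 rises and 1487 falls, and one of at least 8-fold in 9 rises and 174 falls. When the test itself asked for more than a 2-fold change, 225 genes were higher and 1045 lower. Single libraries bore on the tails. Without CholCl replicate 1 there were 1711 falls of at least 2-fold and 684 of at least 8-fold, and without CholCl replicate 3 the falls of at least 32-fold numbered 486.

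Nearly all called genes separated the groups completely. Of the 2515 higher genes, 2498 had each CholCl library above each control library, and of the 3552 lower genes 3499 had each CholCl library below. The calls rest on these same CholCl and control libraries, so the separation is no added support for them. Groups that do not overlap were common over all tested genes, with 4126 above and 5020 below (26% and 31.7%, or 57.7% together), and 32.2% of the genes that were not called also had groups that did not overlap.

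Genes called without a CholCl vessel were then looked up in that vessel. With CholCl replicate 1 left out, 2109 genes were called lower, and in the left-out vessel 2096 of them (99.4%) lay below all 3 controls, against 41.1% of all genes tested. With replicate 2 left out these values were 2445 of 2498 (97.9%) against 40.1%, and with replicate 3 left out 2754 of 2809 (98%) against 40.8%. Of the genes called higher, 1453 of 1463, 1829 of 1860 and 1786 of 1796 lay above all 3 controls in left-out replicates 1, 2 and 3, where 34.6%, 33.2% and 32.8% of all genes did. The same controls served in the fit and in the comparison. Of the 6067 genes called with the 12 libraries, 3255 (53.7%) were called in each of the 6 fits that left out 1 CholCl or control library.

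Abundance was measured by the mean CPM over the 12 libraries. Among genes under 1 CPM, 8.98% were higher and 11.1% lower in CholCl. Among those from 1 to 10 CPM the shares were 11.5% and 21.4%, from 10 to 100 CPM 19.4% and 24.5%, and over 100 CPM 22.6% and 28%. More genes were thus called where more reads lay behind them, in both directions. When 1 of the 6 libraries was left out, 4.65% to 7.08% of genes under 1 CPM were higher and 4.85% to 8.72% lower, and over 100 CPM 14.9% to 27% were higher and 17.7% to 24.8% lower. The lower genes outnumbered the higher ones in each class with TMM scaling. With upper-quartile scaling the higher genes outnumbered the lower ones in each class, at 39% against 22.9% over 100 CPM, and without control replicate 3 they did so over 100 CPM (27% against 24.6%). The order also turned from 10 to 100 CPM with RLE scaling (23.1% against 22.5%) and under 1 CPM without CholCl replicate 2 (6.36% against 5.64%). Large falls stood at all levels. Falls of at least 8-fold took in 4.72% of genes under 1 CPM, 5.97% from 1 to 10, 6.6% from 10 to 100 and 10.2% (161 genes) over 100 CPM. Large rises were few, and their share was highest under 1 CPM, with 15 genes (0.983%). They numbered 14 (0.244%) from 1 to 10 CPM, 7 (0.1%) from 10 to 100 and 6 (0.379%) over 100 CPM.

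The called genes moved a large part of the reads. The 2515 higher genes held 48.3%, 42.9% and 46.9% of gene reads in the 3 CholCl libraries, against 20.8%, 23.7% and 23.4% in the control libraries. The 3552 lower genes held 9.14%, 11.2% and 10.4% in CholCl, against 33.6%, 31.8% and 33.0% in control. The genes not called held 43.6% ± 1.85 in CholCl and 44.4% ± 0.95 in control (SD, n = 3 each). These genes were grouped by the same libraries, so the direction of the first and second set is given by the call and only their size is a description. Abundant genes carried most of it, since the 443 lower genes over 100 CPM held 7.7% ± 0.835 of gene reads in CholCl and 24.2% ± 0.874 in control, and the 358 higher genes over 100 CPM held 38.5% ± 2.97 and 18.3% ± 1.62 (SD, n = 3 each). A large part of the reads of the higher genes belonged to Dapma7bEVm011496, the most abundant gene, with 17.5% of gene reads in CholCl and 7.55% in control. Without it, a setting added after seeing the data, the higher genes over 100 CPM held 21% ± 0.522 in CholCl and 10.7% ± 0.111 in control, and all higher genes 28.5% ± 0.818 and 15.1% ± 0.118 (SD, n = 3 each). The contrast behind the sets was CholCl against control. Libraries of the other salts entered it through the filter, the scaling, the shared estimate of spread and the mean CPM. The higher genes held 27.2% ± 2.91 of reads in C2mimCl and 22.3% ± 0.208 in C12mimCl, and the lower genes 27.4% ± 0.85 and 32% ± 1.4 (SD, n = 3 each).

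**Figure D2:**
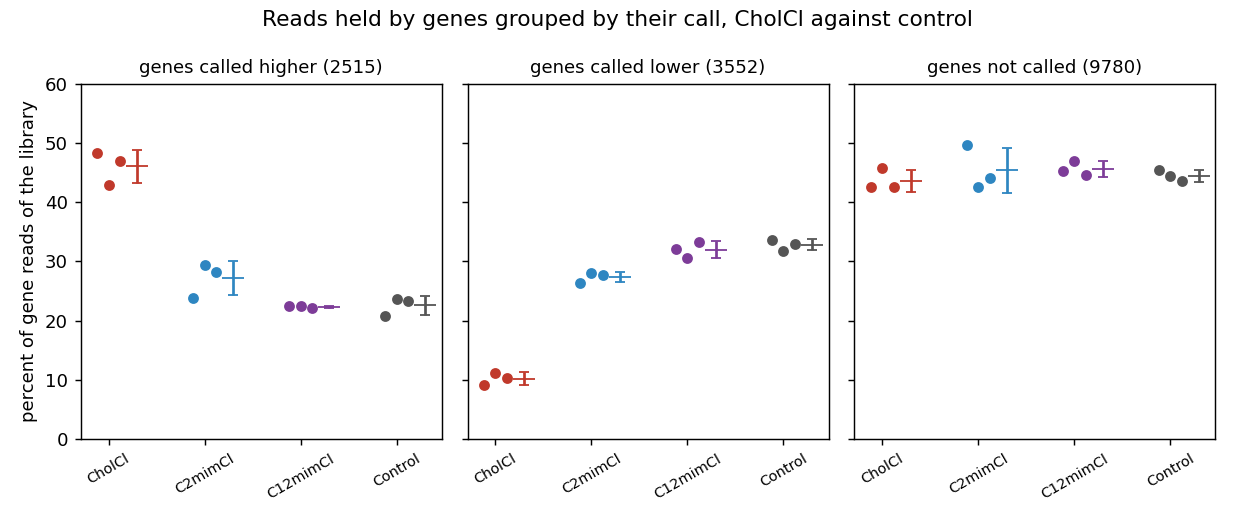
Percent of the gene reads of each library (y axis) held by genes called higher, called lower or not called in CholCl against control. Points are libraries and bars the mean ± SD of 3; the CholCl libraries lie at 42.9% to 48.3% for the higher genes and at 9.14% to 11.2% for the lower ones.

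Gene reads were concentrated in fewer genes in each CholCl library than in any control library. The most abundant gene of each library held 19.1%, 14.0% and 19.3% of gene reads in CholCl, against 5.68%, 8.52% and 8.45% in control. The 10 most abundant held 26.9% ± 3.06 in CholCl and 15.8% ± 1.7 in control, the 100 most abundant 43.1% ± 2.34 and 32.9% ± 1.85, and the 1000 most abundant 71.5% ± 1.21 and 64.8% ± 1.99 (SD, n = 3 each). The number of genes that together held 50% of gene reads was 171, 239 and 178 in the CholCl libraries, and 436, 415 and 332 in the control libraries. Each of these measures separated the groups without overlap (two-sided exact permutation test, p = 0.1, the smallest possible here). Much of the difference lay in 1 gene. With it left out, the 100 most abundant genes held 31.1% ± 0.404 in CholCl and 27.5% ± 1.14 in control, and 391 ± 14.9 and 505 ± 57.2 genes held 50% (SD, n = 3 each), still without overlap. In C12mimCl 338, 332 and 319 genes then held 50%, fewer than in any CholCl library, and in C2mimCl 489, 384 and 405. With the gene counted, these numbers were 259, 263 and 243 in C12mimCl and 386, 244 and 276 in C2mimCl. These shares do not depend on how the libraries were scaled. The widest 95% Wilson interval on such a share was ± 0.028 percentage points, an interval for counting error alone, as no molecular identifiers were used.

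**Figure D3:**
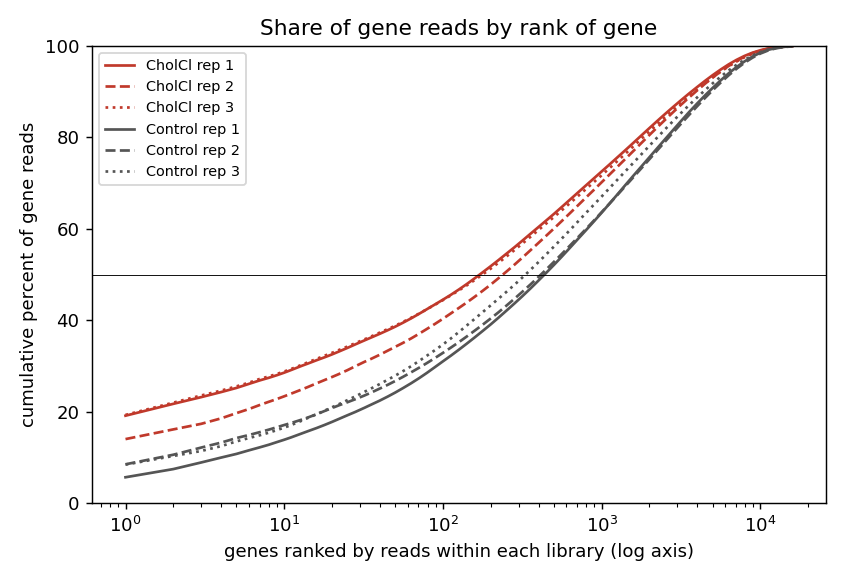
Cumulative percent of gene reads (y axis) against the rank of genes by reads within each library (x axis, log scale) for 3 CholCl and 3 control libraries, with a line at 50%. The CholCl curves start at 14.0% to 19.3% and cross 50% at 171 to 239 genes, and the control curves start at 5.68% to 8.52% and cross it at 332 to 436.

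The genes at the top of the transcriptome were partly exchanged. Of the 100 genes with the highest mean CPM in CholCl and the 100 in control, 62 were in both lists. Of the 100 highest in control, 15 were higher and 48 lower in CholCl, and 18 of the falls were of at least 8-fold. Over all genes above 100 CPM 22.6% were higher, 28% lower and 10.2% lower by at least 8-fold, and over all genes tested 15.9%, 22.4% and 6.55%. Of the 100 highest in CholCl, 40 were higher and 15 lower, and none of the falls reached 8-fold. A list chosen for a high level in 1 group leans to that group by its choice. With upper-quartile scaling the counts of higher and lower genes were 27 and 39 in the control list and 61 and 7 in the CholCl list. Without CholCl replicate 1 they were 8 and 30 in the control list and 28 and 9 in the CholCl list, and without CholCl replicate 3 they were 9 and 40, and 29 and 8. Higher genes in the control list also numbered 9 without control replicate 1 and 9 without control replicate 2. The 38 genes found only in the CholCl list held 5.68% ± 0.0549 of gene reads in CholCl and 2.56% ± 0.151 in control, and the 38 found only in the control list 1.45% ± 0.178 and 6.29% ± 0.845 (SD, n = 3 each).

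The 18 abundant genes that fell by at least 8-fold together took 0.166%, 0.139% and 0.491% of gene reads in CholCl libraries 1, 2 and 3, against 3.12%, 2.65% and 4.01% in control libraries. CholCl replicate 3 was the highest of its group, and the groups did not overlap. Their log2 fold changes ran from -5.01 to -3.06. The most abundant of them in control had 230, 29.6 and 496 CPM in CholCl, against 3350, 2010 and 6140 CPM in control, a log2 change of -3.93 (SE 1.2; edgeR QL test, adjusted p = 0.028). It thus spanned a wide range within CholCl as well as within control. Another was steadier, with 89.2, 166 and 106 CPM in CholCl, against 1680, 1540 and 1980 CPM in control, and a log2 change of -3.85 with SE 0.354 (adjusted p = 0.00011 in the same edgeR test). The number of such falls in the control list depended on the libraries, with 8 without CholCl replicate 1, 11 without CholCl replicate 2 and 11 without control replicate 3, and 13 with upper-quartile scaling.

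Among the 100 genes highest in CholCl, 23 rose by at least 2-fold. Apart from the most abundant gene of all, they included 1 with 5400, 5490 and 5430 CPM in CholCl, against 867, 1000 and 1090 CPM in control. Its log2 change was 2.46 (SE 0.215; edgeR QL test, adjusted p = 8.3e-05), and its CholCl vessels were nearly equal. The largest rise among the 23 was of a gene with 1580, 1370 and 1430 CPM in CholCl, against 110, 60.8 and 96.8 CPM in control, a log2 fold change of 4.03 with SE 0.429 (adjusted p = 0.00022 in the same edgeR test).

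The 1038 genes lower by at least 8-fold, 6.55% of the genes tested, were described further vessel by vessel. Their median level was 0.675, 0.416 and 2.41 CPM in CholCl libraries 1, 2 and 3, against 21.4, 18.7 and 28.0 CPM in control. CholCl replicate 3 kept the highest level of its group in 840 of the 1038 genes (80.9%), compared with 33.4% of all genes tested. In 245 of them (23.6%) it lay at least 4-fold above both other CholCl vessels, compared with 300 (1.89%) of all genes tested and with 0 of the genes called higher. Only 2 genes tested lay at least 4-fold below both others in that vessel. The falls were smaller in CholCl replicate 3, with a median of -2.81 relative to the control mean on the log2 scale, against -4.26 and -4.45 in replicates 1 and 2. Without this vessel 1185 genes fell by at least 8-fold. Among these genes, which had been called with the vessel left out, 1173 still lay below all 3 controls in CholCl replicate 3, with a median log2 ratio of -2.76.

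The same genes varied between vessels in every group. Their median SD of log2 CPM was 0.928 in CholCl, 1.2 in C2mimCl, 0.526 in C12mimCl and 0.617 in control (n = 3 each), while over all genes tested it was 0.188, 0.368, 0.209 and 0.279. In each group replicate 3 was the highest vessel more often than over all genes tested. In control it was so in 612 of the 1038 genes (59%), compared with 42.6% of all genes tested. In C12mimCl it was so in 505 (48.7%), compared with 34.1%, and in C2mimCl in 364 (35.1%), compared with 25.5%. C2mimCl replicate 1 was the highest in 367 (35.4%), compared with 45.2%, and the lowest in 611 (58.9%), compared with 42.8%. Whether vessels of the same number had something in common was not tested. The part that differences between vessels play in the falls was not tested. The 1038 genes were chosen for their fall in these same CholCl vessels, so its presence there is given by the choice. A floor of 3 reads for the whole group was set only for the 16 genes with no reads in CholCl. With it 1035 of the 1038 genes passed 8-fold.

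**Figure D4:**
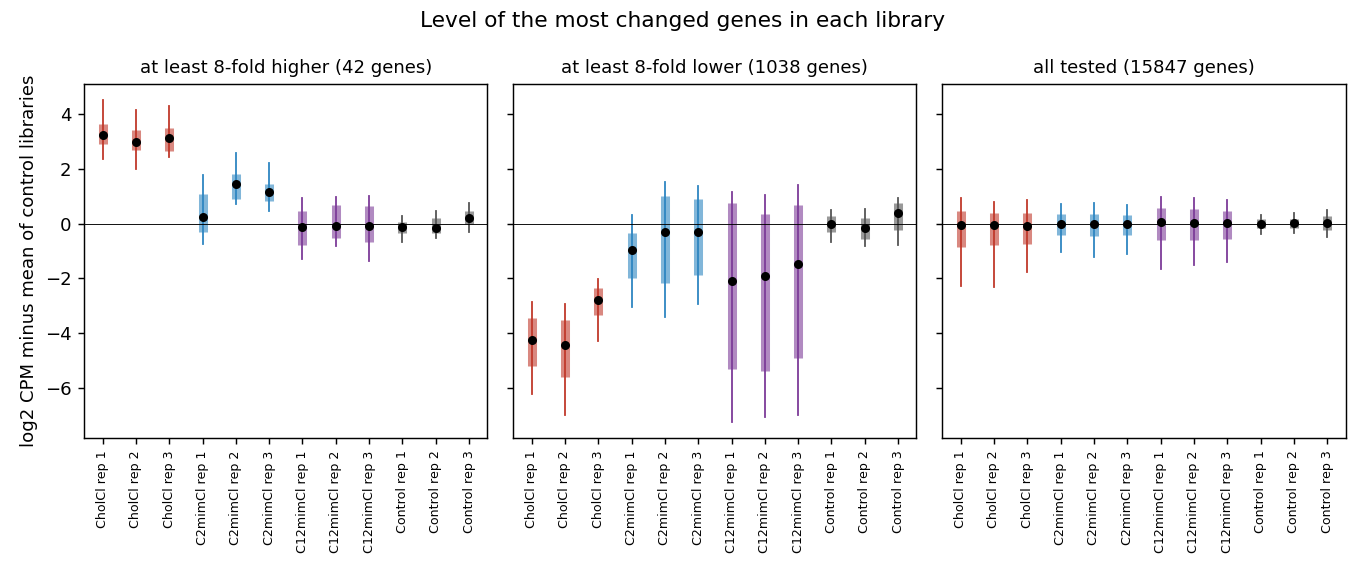
Log2 CPM minus the mean of the control libraries (y axis) in each of the 12 libraries for the 42 genes at least 8-fold higher, the 1038 genes at least 8-fold lower and all 15847 genes tested. Dots are medians, thick bars the middle 50% and thin bars the middle 80% of genes; in the lower set the medians of CholCl are -4.26, -4.45 and -2.81, with replicate 3 nearest to 0.

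Few of the large falls were complete. In 405 of the 1038 genes each CholCl library still held at least 10 reads, in 98 the 3 CholCl libraries together held 3 reads or fewer, and in 16 they held none. Over all 46334 gene rows, 156 genes had reads in each control library and none in CholCl, and 69 had reads in each CholCl library and none in control. Of the 156, 16 had at least 5 reads in each control library, while 0 of the 69 reached that in CholCl. Only 8 genes had at least 10 reads in each control library and 0 in CholCl, and 0 genes the reverse. One of them had 159, 110 and 158 reads in control. In a second, control libraries differed widely, with 14, 206 and 109 reads. Set against that floor, the 8 genes were at least 21.3-fold to at least 158-fold lower in CholCl, and all 8 were called lower (edgeR's QL test). In C12mimCl 2 of the 8 also had no reads, and in C2mimCl 0 did.

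The 42 genes higher by at least 8-fold, 0.265% of the genes tested, varied less between CholCl vessels than the large falls did. Their median level was 5.33, 4.09 and 4.86 CPM in the CholCl libraries, against 0.335, 0.361 and 0.514 CPM in control. The CholCl vessels were close to each other, with a median SD of log2 CPM of 0.234, against 0.447 in control (n = 3 each). Spread and level were not separated, since few reads lay behind the SD of many rises in control and of many large falls in CholCl. Leaving out 1 library left 31 (without control replicate 1) to 41 (without CholCl replicate 2) of the 42 called and at least 8-fold higher. At least 10 reads in each library were present for 41 of them in CholCl and for 16 in control. Together they took 0.554% ± 0.0339 of gene reads in CholCl and 0.0425% ± 0.00376 in control (SD, n = 3 each). The 6 of them over 100 CPM held 0.498%, 0.455% and 0.442% in CholCl, against 0.0402%, 0.0327% and 0.0339% in control.

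The rises of at least 32-fold numbered 5. The most abundant had 948, 772 and 769 CPM in CholCl, against 16.8, 17.0 and 33.3 CPM in control, with a log2 change of 5.21 (SE 0.458; edgeR QL test, adjusted p = 9e-05). The least abundant had 5.25, 4.02 and 3.78 CPM, against 0, 0.131 and 0.158 CPM in control. All 5 had groups that did not overlap. Control libraries also served for the other salts, and set beside the CholCl values of 5.21 to 5.93 the log2 fold changes of these 5 genes were 2.31 to 3.96 after C2mimCl. After C12mimCl they were -0.873 to 0.552 in 4 of the genes, and the least abundant gene had 0 CPM in each C12mimCl library.

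Among genes that were called and did not overlap, identifiers are given for the rise and the fall with the smallest p and for those with the highest CPM. Dapma7bEVm006685 had the smallest p of the rises. It had 127, 93.3 and 133 CPM in CholCl, against 7.74, 5.18 and 7.11 CPM in control. The CholCl vessels were far above all controls, with a log2 change of 4.14 (SE 0.252; edgeR QL test, adjusted p = 1.6e-05). It had 69.9, 62.8 and 57.7 CPM in C2mimCl and 3.61, 4.41 and 6.35 CPM in C12mimCl. Set directly against those salts, CholCl was higher by 0.89 with SE 0.221 than C2mimCl (edgeR QL test, adjusted p = 0.014) and by 4.62 with SE 0.259 than C12mimCl (adjusted p = 3.3e-06).

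Dapma7bEVm018393 had the smallest p of the falls and of all genes. It had 1.13, 1.32 and 1.61 CPM in CholCl (15, 19 and 20 reads), against 41.2, 40.3 and 33.4 CPM in control (676, 615 and 423 reads). The fall was alike in the 3 vessels, with a 95% interval of the log2 fold change from -5.20 to -4.44. It had 46.0, 54.0 and 55.3 CPM in C2mimCl and 34.9, 38.7 and 32.9 CPM in C12mimCl. Neither was called against control in edgeR's QL test, with log2 fold changes of 0.43 and -0.11 (adjusted p = 0.14 and 0.56).

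Dapma7bEVm011496 was the most abundant gene of both groups and so the called rise with the highest CPM. It had 2636250, 1893486 and 2496784 reads in CholCl, against 875947, 1182255 and 1131918 in control. CholCl replicate 2 was the lowest of its group and lay above every control. The 95% interval of its log2 fold change ran from 0.63 to 1.9, and with the share of reads assigned to no gene as a covariate the change was 0.818 and was not called (edgeR QL test, adjusted p = 0.12). That share did not overlap between CholCl and control, and the total behind it includes the reads of this gene. Covariate and group are thus partly confounded. Dapma7bEVm011496 had 138000 CPM in C2mimCl replicate 2, above the 131000 CPM of CholCl replicate 2. Set directly against the salts, CholCl was higher by 1.11 than C12mimCl (edgeR QL test, adjusted p = 0.0073). Against C2mimCl the difference of 0.76 was not called (adjusted p = 0.067 in the same test).

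Dapma7bEVm018399 was the called fall with the highest CPM and the fourth most abundant gene of the 6 libraries. It had 7820, 11100 and 8360 CPM in CholCl, against 16800, 14300 and 11500 CPM in control. The groups came close to each other between CholCl replicate 2 and control replicate 3. Its log2 change was -0.64 (SE 0.181; edgeR QL test, adjusted p = 0.019). The call was lost without CholCl replicate 1 or 3 or control replicate 1 (edgeR adjusted p = 0.083, 0.07 and 0.072), with upper-quartile scaling (adjusted p = 0.11), with the share of reads assigned to no gene as a covariate (adjusted p = 0.084) and, in the 6 libraries fitted alone, at an adjusted p of 0.05. Dapma7bEVm018399 had 14300, 15600 and 15300 CPM in C2mimCl and 7910, 8130 and 9680 CPM in C12mimCl. It was also called lower after C12mimCl than in control, with a log2 change of -0.73 (edgeR QL test, adjusted p = 0.011). CholCl set directly against C12mimCl was not called (adjusted p = 0.7 in the same test).

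**Figure D5:**
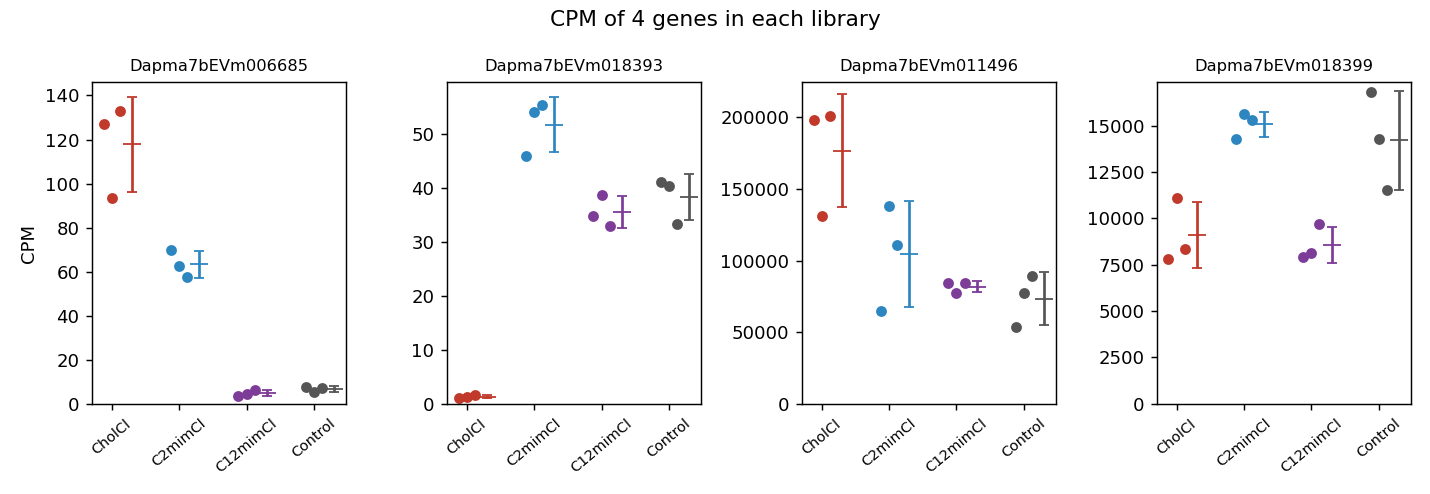
CPM (y axis, from 0) of 4 genes in the CholCl, C2mimCl, C12mimCl and control libraries; points are libraries and bars the mean ± SD of 3. Dapma7bEVm018393 lies at 1.13 to 1.61 CPM in CholCl and at 32.9 to 55.3 CPM in the other 9 libraries.

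The CholCl response was last set beside that of the imidazolium salts. These comparisons share the control libraries, so each is given by its own values. Against control 1.43% of genes were called after C2mimCl and 35.3% after C12mimCl. C2mimCl replicate 1 stood apart from its group, with r of log2 CPM across genes of 0.8846 and 0.8993 with the other vessels, against 0.9839 between those, and without it 15.1% of genes were called after C2mimCl. For the 2515 genes higher after CholCl the median log2 fold change was 0.833 after CholCl, 0.208 after C2mimCl and -0.0603 after C12mimCl. For the 3552 lower genes the medians were -1.81, -0.25 and 0.0683, and over all genes tested -0.0929, 0.00747 and 0.031. For the 1038 large falls they were -3.95, -0.366 and -1.95. In C12mimCl these genes were widely spread, since the middle 50% of them reached both below and above control. Of the 1038 genes, 502 were called lower and 17 higher after C12mimCl than in control, against 3407 and 2194 of all 15847 tested. For the 42 large rises the medians were 3.41, 1.31 and -0.0862. Without C2mimCl replicate 1, a setting added after seeing the data, the C2mimCl medians of these sets were 0.292 for the higher genes, -0.409 for the lower genes, -0.425 for the large falls and 1.6 for the large rises.

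CholCl was also tested directly against each salt at their EC20. CholCl was higher in 1834 and lower in 2791 genes than C2mimCl, and higher in 4387 and lower in 4688 than C12mimCl (edgeR QL test, adjusted p below 0.05), or 29.2% and 57.3% of genes tested. In 1196 genes CholCl was higher than each of the 3 other groups, and in 1284 it was lower than each. Of these, 5 were at least 8-fold higher and 145 at least 8-fold lower in all 3 comparisons, which share the CholCl libraries. Without CholCl replicates 1 and 2 in turn, 2337 and 2974 genes were called against C2mimCl. The number of genes on the same side in all 3 comparisons was 1202 without CholCl replicate 1 and 1623 without CholCl replicate 2, in place of 2480. With the share of reads assigned to no gene as a covariate it was 1626, and 4180 genes were called against C12mimCl in place of 9075. That share was 5.25% to 5.83% in CholCl and 8.11% to 10.1% in C12mimCl libraries.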

How the data were processed

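RNA from pools of 90 whole animals was sequenced in 12 libraries. A stranded mRNA kit and 150 bp paired-end reads were used, per the labels' protocols. The authors deposited whole-number counts of reads per gene, not normalised; the submitters' processing notes name HTSeq, STAR 2.7.3a and Trimmomatic 0.39. No build, annotation or strand setting is given in the sources used here, and overlapping, antisense and near-identical genes are uncertain. The 5 summary rows entered neither library sizes nor tests.

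The analysis used edgeR 4.0.16 (R 4.3.3): expression filter (minimum count 10, total 15), TMM scaling, robust quasi-likelihood fit of the 12 libraries with 1 mean per group, Benjamini-Hochberg adjustment over 15847 genes and calls below 0.05. The SE is the log2 change over the root of F. SD of log2 CPM used a prior count of 2. The fit was also run on simulated counts with few changed genes, balanced in direction. It recovered most of the 8-fold and few of the 2-fold changes. Such counts cannot test the scaling where a large part of the genes change. Alternatives used DESeq2 1.42.0 and limma 3.58.1. The closest replicates, C2mimCl 2 and 3, differed by a chi-square of 15.9 per degree of freedom, so each library counts as 1 replicate.

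Identifiers were named by rule: called genes whose groups did not overlap, with the smallest p or the highest mean CPM in each direction. The gene sets, classes and tests were chosen with earlier results of these data known, and examples without identifier after their values were seen.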

Additional observations from a re-analysis of the deposited data

How the results depend on the processing

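Of 281 values recomputed under other settings, 234 kept their call or stayed within the limits of change used here, 38 moved beyond them and 9 lost a call. These limits were wide, since totals of 4054 and 9094 called genes in place of 6067 stayed within them. Many of the 281 values also rest on the same genes and libraries. The 4 genes named kept their direction throughout. The balance of calls turned with upper-quartile scaling, where 36.8% of calls were falls and the median log2 change of all genes was 0.167, against 58.5% and -0.0929; the median was 0.00585 with the covariate named below. The call count was 5701 with the replicate block. Same-numbered CholCl and control vessels deviated with correlations of -0.0723, 0.17 and 0.152 across genes. CholCl replicates 2 and 3 correlated best with the control of their own number, and CholCl replicate 1 did not. The numbers were not taken as pairs in the main fit. With the replicate block 1072 genes fell by at least 8-fold, in place of 1038. Leaving out 1 CholCl or control library gave 3572 to 5571 called genes (1463 to 2410 higher, 2109 to 3161 lower), 38 to 57 rises and 684 to 1185 falls of at least 8-fold, 148 to 232 calls under 1 CPM and 516 to 816 over 100 CPM. Direct calls were 2337 to 4842 against C2mimCl and 7793 to 9412 against C12mimCl, with 1202 to 2363 on the same side in all comparisons. Fewer samples were then fitted. Without C2mimCl replicate 1 these were 7949 (3306 higher, 4643 lower), 48, 1118, 418, 974, 4373, 10309 and 2256. Upper-quartile scaling gave 4512 higher genes and 67 rises of at least 8-fold, of which there were 66 with no filter and 20 with a filter of 1 CPM in 6 libraries, which left 10 calls under 1 CPM. With the share of reads assigned to no gene as covariate there were 1366 higher genes, 154 calls under 1 CPM, 4180 against C12mimCl and 1626 on the same side in all comparisons. Library quality weights gave 3976 higher genes, 485 calls under 1 CPM and 7016 against C2mimCl; the causes were not tested. An added 2-fold threshold, stricter by construction, gave 1270 genes, 225 higher and 1045 lower, 680 falls of at least 8-fold, 66 calls under 1 and 196 over 100 CPM, 774 against C2mimCl, 3311 against C12mimCl and 234 on the same side in all comparisons. Without the most abundant gene the CholCl excess of the top 100 was 3.63 percentage points in place of 10.2, and the difference in the number of genes holding 50% of reads -114 in place of -198. Genes with no reads in CholCl numbered 16 and 3 with minimums of 5 and 20 reads in each control library. DESeq2 called 6875 genes and limma-voom 5816.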
